A study of Homo sapiens with 6 samples.

Results

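F-box substrate receptors are the exchangeable parts of SCF ubiquitin ligases, and the genes described here are the human protein-coding genes of that kind other than SKP2. They were taken by symbol: FBXO, FBXL or FBXW followed by a number, plus CCNF and BTRC. Of 77 such symbols among the 60651 gene rows, 65 are protein-coding in RefSeq and 12 are pseudogenes, antisense or other non-coding genes, which were left out. Expression was measured by RNA sequencing in MDA-MB-231, an established human breast cancer cell line that lacks hormone receptors and HER2 amplification. The cells, of unmodified genotype per the labels, were kept for 24 h with DMSO, the solvent control, or with 75 or 150 µg/ml of AF-EAE. AF-EAE is made from the herb Antenoron filiforme by extraction into ethyl acetate, and is a mixture whose compounds the labels do not list. Each group has 2 libraries, labelled as biological replicates. The sources used here do not say if those were separate cultures, and the p-values speak only of the spread among the 6 libraries.

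An SCF ligase joins the adaptor SKP1, the scaffold CUL1 and the RING protein RBX1 to 1 F-box protein, which binds SKP1 through its F-box and a substrate through the rest of the protein. The F-box protein sets which substrate is ubiquitinated, usually after the substrate has been phosphorylated, and most substrates are then degraded by the proteasome. The family is divided by the substrate-binding part: WD40 repeats in BTRC and the FBXW proteins, leucine-rich repeats in the FBXL proteins, and other or no known domains in the FBXO proteins, among which cyclin F (CCNF) is counted. In dividing cells several of these receptors time the destruction of cyclins, cyclin inhibitors and other cell cycle proteins, and SKP2, which the series title names, is the best known of them.

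Library sizes ran from 15621103 to 17113722 counts in genes. The detection floor, taken as 3 counts in a library, equals 0.175 to 0.192 CPM before TMM scaling. CPM is the count of a gene scaled to a common library size, and all other CPM values are after TMM scaling. The line's mesenchymal markers VIM, CD44, AXL and CAV1 were expressed, and their summed level was 3516 to 3619 CPM in DMSO libraries, 2519 to 2564 CPM at 75 µg/ml and 1863 to 1923 CPM at 150 µg/ml. CDH1 and PGR lay at or near 0 and ESR1 at no more than 0.917 CPM, whereas KRT8, listed among the markers expected to be low, had 283 to 531 CPM. The 7 markers of that list summed to 627 to 636 CPM in DMSO libraries, 464 to 479 CPM at 75 µg/ml and 383 to 389 CPM at 150 µg/ml. In DMSO libraries this is more than KRT8 alone, and ERBB2, GATA3 and EPCAM are the other members. Of the 5 tested for change, 2 rose and 1 fell at 75 µg/ml, and 1 rose and 2 fell at 150 µg/ml (60.0% at each dose, beside 38.6% and 51.5% of all genes tested). Their log2 fold changes ran from -0.57 to 2.65 at 75 µg/ml and from -0.90 to 2.28 at 150 µg/ml. The part of either list in the F-box results was not tested. Summed markers of leukocytes, endothelium and fibroblasts were at most 0.428, 1.57 and 4.59 CPM, with PTPRC, CD3E and DCN at 0 in all 6 libraries. The labels name the cells as epithelial: the keratin KRT8 was expressed, whereas CDH1 had at most 2 counts in a library. In bulk RNA, fewer cells of a type and less RNA per cell cannot be told apart.

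Of the 65 genes, 56 passed the filter on low counts and were tested: 10 of 11 in the WD40 class, 14 of 17 in the leucine-rich repeat class and 32 of 37 in the FBXO class. The other 9 (FBXL16, FBXL22, FBXL7, FBXO15, FBXO24, FBXO39, FBXO40, FBXO47 and FBXW12) had no more than 9 counts in any library, and FBXL7 and FBXO40 had 0 in all 6. FBXW10 had counts below the filter in a DMSO library and passed only through its treated libraries.

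Levels per length spanned a wide range within the family. Per kb of exon, FBXW5, a regulator of centriole duplication, had the highest mean level, at 59.2 CPM per kb in DMSO libraries, 53.4 at 75 µg/ml and 49.4 at 150 µg/ml. Next in DMSO libraries came FBXW11 and FBXL5, at 24.0 and 23.2 CPM per kb. FBXW10 had the lowest level in each group, at 0.109 CPM per kb in DMSO libraries, 0.283 at 75 µg/ml and 0.376 at 150 µg/ml. The median over the 56 tested genes was 4.94 CPM per kb in DMSO libraries, 4.86 at 75 µg/ml and 4.75 at 150 µg/ml. The summed level of all 65 genes differed little between groups, at 2142 to 2149 CPM with DMSO, 2154 to 2161 CPM at 75 µg/ml and 2185 to 2216 CPM at 150 µg/ml.

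**Figure D1:**
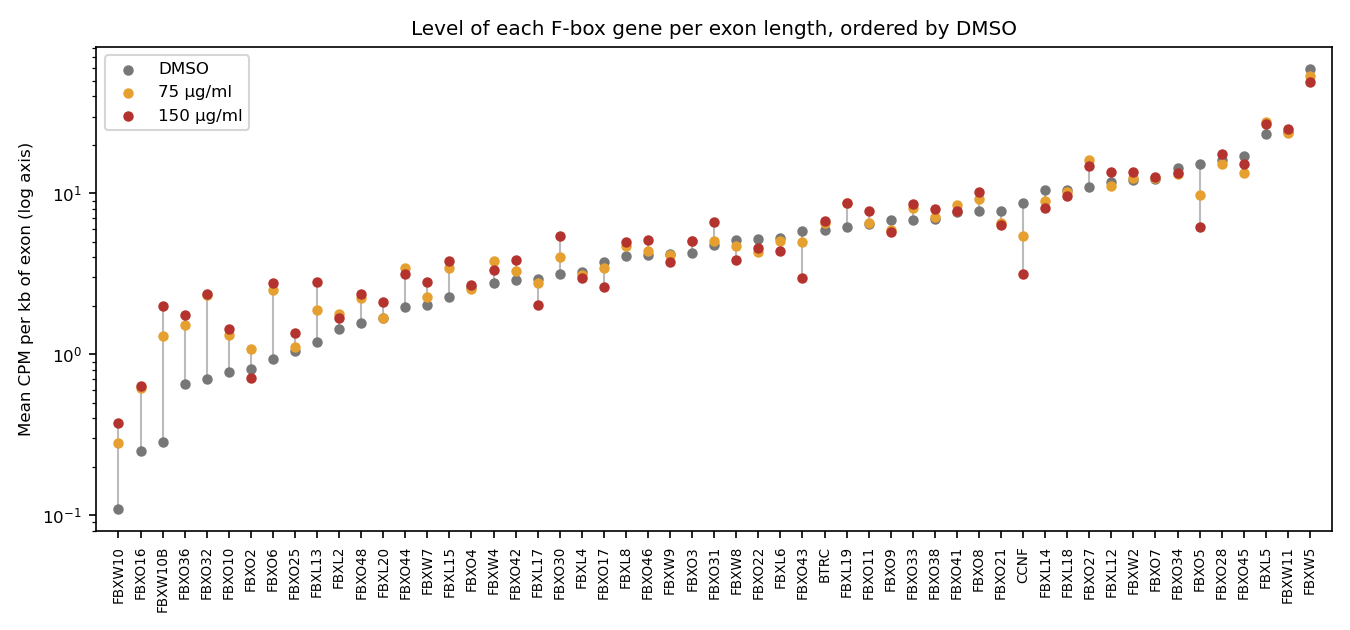
Mean level of 55 of the tested F-box genes in CPM per kb of exon (log axis), ordered by the DMSO level, with 1 point per group (DMSO grey, 75 µg/ml orange, 150 µg/ml red). The low end holds FBXW10, FBXO16 and FBXW10B, whose treated points lie above the DMSO point, and FBXW5 is the highest in every group.

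At 75 µg/ml against DMSO, the largest rises in the family were those of FBXW10B, FBXO32 and FBXO6, and the largest falls those of CCNF and FBXO5. Of the 56 tested genes, 16 rose and 6 fell in the quasi-likelihood test of edgeR (p adjusted by Benjamini-Hochberg over all 15589 genes tested, threshold 0.05), which is 39.3%, beside 38.6% of all genes tested. The share that rose was 28.6%, beside 19.2% of all genes tested, and the share that fell was 10.7%, beside 19.4%. The median log2 fold change was 0.07 over the F-box genes and 0.01 over all genes tested. The libraries of the 2 groups did not overlap for 41 of the 56 genes (73.2%), beside 68.5% of all genes tested. With libraries scaled by total counts in place of TMM, the median log2 fold change over all genes tested was 0.14. With that scaling, 25 F-box genes were called higher and 3 lower, beside 4501 higher and 1816 lower of all 15589 genes tested.

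At 150 µg/ml against DMSO, 25 F-box genes rose and 12 fell, FBXW10 among the higher calls although it passed the filter only through treated libraries. That is 66.1% of the 56, beside 51.5% of all genes tested; 44.6% rose, beside 25.8%, and 21.4% fell, beside 25.7%. The median log2 fold change was 0.20 over the F-box genes and 0.03 over all genes tested. The 2 groups of libraries did not overlap for 48 genes (85.7%), beside 74.8% of all genes tested. Scaled by total counts, which gave a median log2 fold change of 0.22 over all genes tested, 36 were called higher and 5 lower. Of all 15589 genes tested, that scaling called 6031 higher and 2542 lower. The comparisons of both doses share the DMSO libraries, so their calls are given side by side: 15 genes were higher at both doses, 6 lower at both, 10 higher and 6 lower at 150 µg/ml without a call at 75 µg/ml, and FBXW4 was higher at 75 µg/ml without a call at 150 µg/ml. The other 18 had no call against DMSO at either dose.

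At 150 against 75 µg/ml, 9 F-box genes were higher and 6 lower, which is 26.8% of the 56, beside 22.0% of all genes tested. For the higher genes the share was 16.1%, beside 9.51%, and for the lower ones 10.7%, beside 12.5%. The median log2 fold change was 0.04 over the F-box genes and 0.00 over all genes tested, and the libraries did not overlap for 36 genes (64.3%), beside 60.6%. Scaled by total counts, the split was 12 higher and 4 lower, beside 2206 higher and 1345 lower of all 15589 genes tested. CCNF, FBXO5 and FBXO43 were called lower with any 1 of the 6 libraries left out, whereas every higher call was lost on leaving out at least 1 library. Fewer F-box genes were called without either 75 µg/ml library or without 150 µg/ml replicate 1. Those fits also called fewer of all genes tested. DESeq2 called 4 higher and 4 lower, beside 980 higher and 1584 lower of all genes.

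**Figure D2:**
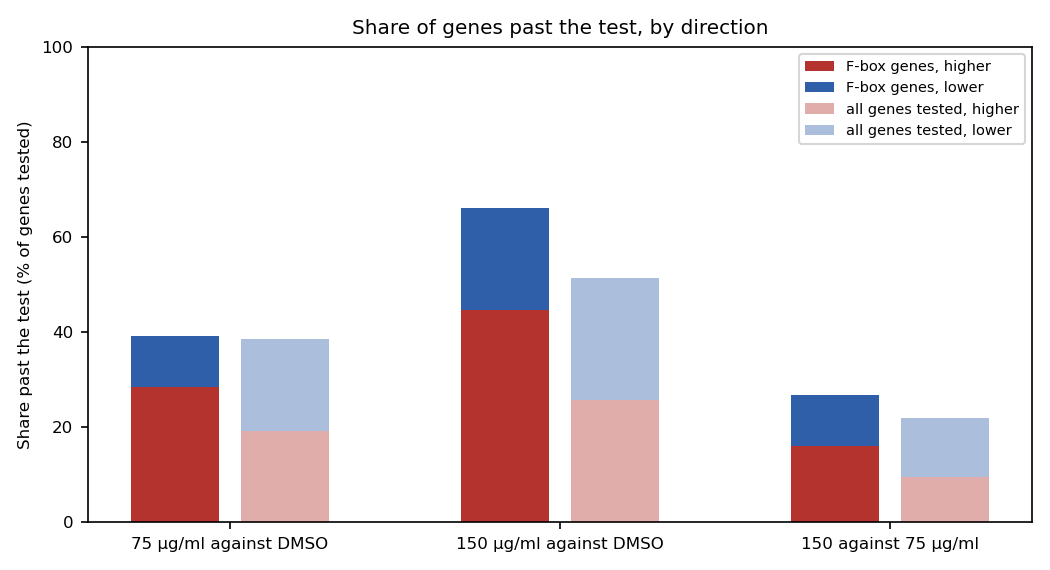
Share of genes past the test in each comparison, in percent of genes tested, for the 56 F-box genes (dark bars) and all 15589 genes (pale bars), split into higher (red) and lower (blue). The F-box bar reaches 39.3%, 66.1% and 26.8% in the 3 comparisons, and the bar of all genes 38.6%, 51.5% and 22.0%.

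**Figure D3:**
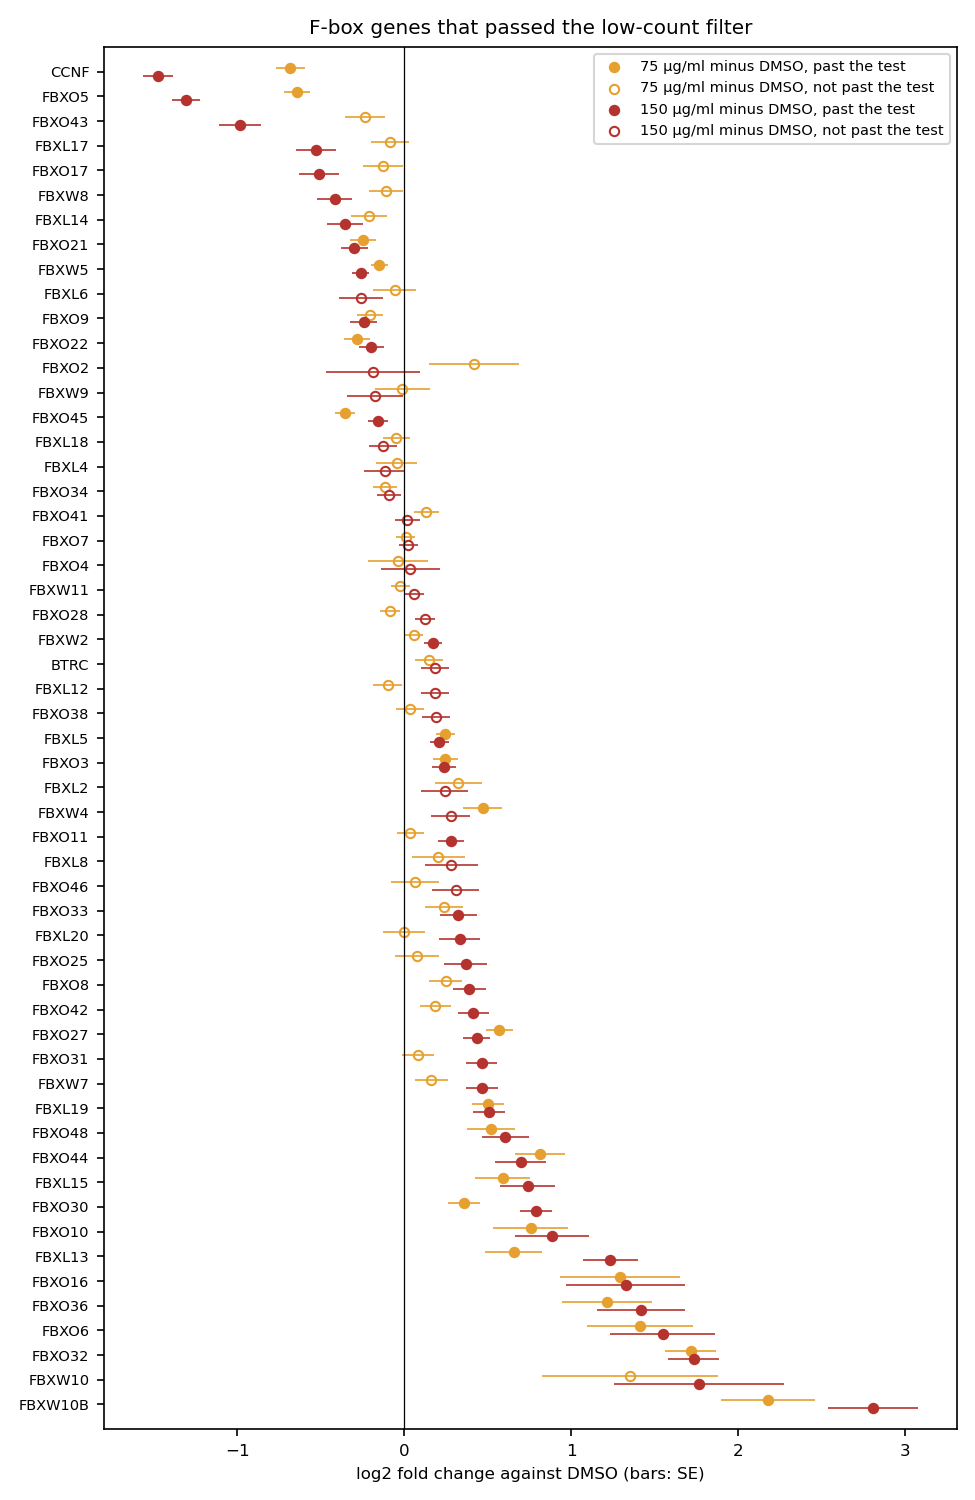
Log2 fold change against DMSO of 55 of the tested F-box genes at 75 µg/ml (orange) and 150 µg/ml (red), with bars of 1 SE and filled points for an adjusted p under 0.05. Genes are ordered by the change at 150 µg/ml, from CCNF at -1.47 to FBXW10B at 2.81.

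Receptors with roles in the cell cycle held the largest falls. Of the 10 on this list (CCNF, FBXO5, FBXO43, FBXW7, BTRC, FBXW11, FBXW5, FBXO4, FBXO31 and FBXL12), all tested, 3 fell and the other 7 were not called at 75 µg/ml, and 2 rose and 4 fell at 150 µg/ml. That is 30.0% and 60.0% called, beside 38.6% and 51.5% of all genes tested. Scaled by total counts, 2 rose and 2 fell at 75 µg/ml, and 5 rose and 3 fell at 150 µg/ml, so the balance of the list depends on the scaling. Of all 15589 genes tested, that scaling called 4501 higher and 1816 lower at 75 µg/ml, and 6031 higher and 2542 lower at 150 µg/ml. With TMM scaling, the median log2 fold change of the list was -0.07 at 75 µg/ml and 0.05 at 150 µg/ml. Over all genes tested it was 0.01 and 0.03. Between doses, 3 of the 10 were higher at 150 µg/ml and 3 lower (30.0% each, beside 9.51% higher and 12.5% lower of all genes tested).

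Cyclin F, encoded by CCNF (chr16:2429394-2458854, plus strand, GENCODE 29 on GRCh38), is an F-box protein with a cyclin box whose level peaks in G2 and which targets the ribonucleotide reductase subunit RRM2 and the centriole protein CP110. CCNF had 57.9 and 51.9 CPM in DMSO libraries, 33.7 and 34.8 CPM at 75 µg/ml and 19.0 and 20.5 CPM at 150 µg/ml. The groups were fully separated, with each dose below the one before. The gene fell by 0.68 on the log2 scale at 75 µg/ml (SE 0.0864, edgeR adjusted p = 7.6e-06) and by 1.47 at 150 µg/ml, a 2.78-fold lower level (SE 0.0916, edgeR adjusted p = 4.7e-10). It was also lower at 150 than at 75 µg/ml, by a log2 fold change of -0.79 (SE 0.0944, edgeR adjusted p = 1.3e-05). Its neighbour TEDC2, 1226 bp away on the same strand, had a log2 fold change of -0.16 at 75 µg/ml (edgeR adjusted p = 0.35) and fell by 0.58 at 150 µg/ml (edgeR adjusted p = 0.001).

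EMI1, encoded by FBXO5 (chr6:152970519-152983579, minus strand), inhibits the anaphase-promoting complex (APC/C) from late G1 to G2 and is itself a substrate of the beta-TrCP receptors. FBXO5 had 60.1 and 57.2 CPM in DMSO libraries, 38.6 and 36.6 CPM at 75 µg/ml and 24.3 and 23.0 CPM at 150 µg/ml. As with CCNF, the groups did not overlap and the level was lower at each higher dose. FBXO5 fell by 0.64 at 75 µg/ml (SE 0.0797, edgeR adjusted p = 6.1e-06) and by 1.31 at 150 µg/ml (SE 0.0835, edgeR adjusted p = 6.5e-10), with -0.67 between the doses (SE 0.0859, edgeR adjusted p = 2.8e-05).

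The promoters of CCNF and FBXO5, the 2 F-box genes called lower in all 3 comparisons, are shown for the cell cycle motifs they hold or lack, in RefSeq's 300 bases from 250 before to 50 after the start (GRCh38.p14). Capitals mark the letters TTTGAA, the core of the cell cycle homology region (CHR), and those of the CCAAT box. CCNF lies at chr16:2429197-2429496 on the plus strand and FBXO5 at chr6:152983530-152983829 on the minus strand, and both are written 5′ to 3′ along the gene.
CCNF: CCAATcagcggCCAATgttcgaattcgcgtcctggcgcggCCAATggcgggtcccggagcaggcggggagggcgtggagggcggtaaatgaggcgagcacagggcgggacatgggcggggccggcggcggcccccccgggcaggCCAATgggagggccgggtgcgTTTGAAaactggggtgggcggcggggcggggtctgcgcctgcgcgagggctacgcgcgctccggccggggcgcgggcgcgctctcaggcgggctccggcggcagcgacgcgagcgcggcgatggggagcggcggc
FBXO5: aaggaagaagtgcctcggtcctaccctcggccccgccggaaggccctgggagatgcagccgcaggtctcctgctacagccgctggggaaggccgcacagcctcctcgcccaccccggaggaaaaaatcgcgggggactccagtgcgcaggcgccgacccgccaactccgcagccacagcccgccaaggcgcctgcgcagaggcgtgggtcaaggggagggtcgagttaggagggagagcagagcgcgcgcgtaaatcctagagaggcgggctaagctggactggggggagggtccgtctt
Motifs were searched as exact letters on both strands. CCNF holds TTTGAA at -85, counted from the start base as 0, and CCAAT at -250, -239, -210 and -106. The FBXO5 window holds neither of these, nor any of the E2F letters searched, which were TTTCCCGC, TTTGCCGC, TTTCGCGC and TTTGGCGC. Each holds GCGTG, the core of the aryl hydrocarbon receptor element, at -179 in CCNF and at -49 in FBXO5. The CHR letters are in 15.4% of all 27305 promoters of that length, the CCAAT letters in 35.7%, the E2F letters in 3.33% and the GCGTG letters in 36.3%. Among the 50 F-box genes with a promoter in the table, the CHR letters are in 2 (CCNF and FBXO36), the CCAAT letters in 15, the E2F letters in 2 (FBXO44 and FBXO9) and the GCGTG letters in 28. CACGTG, the E-box, is in 4 of the 50, beside 7.43% of all promoters, TGATGNAA, an ATF4 element, in 1, beside 3.67%, and GTAAACA, a FOXO site, in 1, beside 3.41%. A match is a description of the letters, not of binding.

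FBXW7, the receptor for cyclin E, MYC, JUN and NOTCH, had 22.1 and 22.8 CPM in DMSO libraries, 24.6 and 25.6 CPM at 75 µg/ml and 32.4 and 29.7 CPM at 150 µg/ml. All 3 groups were separated. Its log2 fold change was 0.16 at 75 µg/ml (95% interval -0.05 to 0.37, edgeR adjusted p = 0.21), and it rose by 0.47 at 150 µg/ml (SE 0.0975, edgeR adjusted p = 0.00064). The 150 against 75 µg/ml difference of 0.30 (edgeR adjusted p = 0.031) was lost without either 75 µg/ml library or without 150 µg/ml replicate 1 (edgeR adjusted p = 0.17, 0.087 and 0.21).

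The relative of FBXO5 that holds vertebrate eggs in metaphase, FBXO43 (EMI2; chr8:100133360-100145800), had 21.6 and 24.6 CPM in DMSO libraries, 17.8 and 21.4 CPM at 75 µg/ml and 11.6 and 11.8 CPM at 150 µg/ml. The 3 groups did not overlap, with the 75 µg/ml libraries just below DMSO and the 150 µg/ml libraries well below both. Its log2 fold change was -0.23 at 75 µg/ml (95% interval -0.49 to 0.02, edgeR adjusted p = 0.14), and it fell by 0.98 at 150 µg/ml (SE 0.127, edgeR adjusted p = 4.5e-06).

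The paralogous beta-TrCP receptors, which recognise phosphorylated IkB, beta-catenin and EMI1, showed no call in any comparison. BTRC had 38.1 and 40.5 CPM in DMSO libraries, 45.7 and 41.3 CPM at 75 µg/ml and 44.0 and 45.3 CPM at 150 µg/ml, with log2 fold changes of 0.15 (95% interval -0.03 to 0.32) and 0.18 (0.01 to 0.36) and edgeR adjusted p = 0.18 and 0.072. Its treated libraries all lay above both DMSO libraries. Under total-count scaling BTRC was called higher at both doses. FBXW11 had 130 and 137 CPM in DMSO libraries, 136 and 127 CPM at 75 µg/ml and 141 and 138 CPM at 150 µg/ml, with log2 fold changes of -0.02 (-0.14 to 0.10) and 0.06 (-0.06 to 0.18) and edgeR adjusted p = 0.78 and 0.37. Its DMSO and 75 µg/ml libraries overlapped. Under the same scaling FBXW11 was called higher at 150 µg/ml.

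FBXW5 had 197 and 188 CPM in DMSO libraries, 172 and 175 CPM at 75 µg/ml and 161 and 160 CPM at 150 µg/ml, again without overlap. It fell by 0.15 (edgeR adjusted p = 0.025) and by 0.26 (edgeR adjusted p = 0.00031). Scaled by total counts, its change was -0.02 and -0.07 and was not called, and the 75 µg/ml call was lost without DMSO replicate 1 or either 75 µg/ml library (edgeR adjusted p = 0.16, 0.13 and 0.075). FBXO31, reported to target cyclin D1, had 34.8 and 31.1 CPM in DMSO libraries, 36.1 and 33.6 CPM at 75 µg/ml and 48.8 and 42.2 CPM at 150 µg/ml. Only the 150 µg/ml libraries were set apart, and FBXO31 rose by 0.46 against DMSO (SE 0.094, edgeR adjusted p = 0.00049) and by 0.38 against 75 µg/ml. The second of these calls was lost without 75 µg/ml replicate 2 or 150 µg/ml replicate 1 (edgeR adjusted p = 0.063 and 0.12). FBXO4, with log2 fold changes of -0.03 and 0.04, and FBXL12, with -0.10 and 0.19, had no call against DMSO at either dose.

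**Figure D4:**
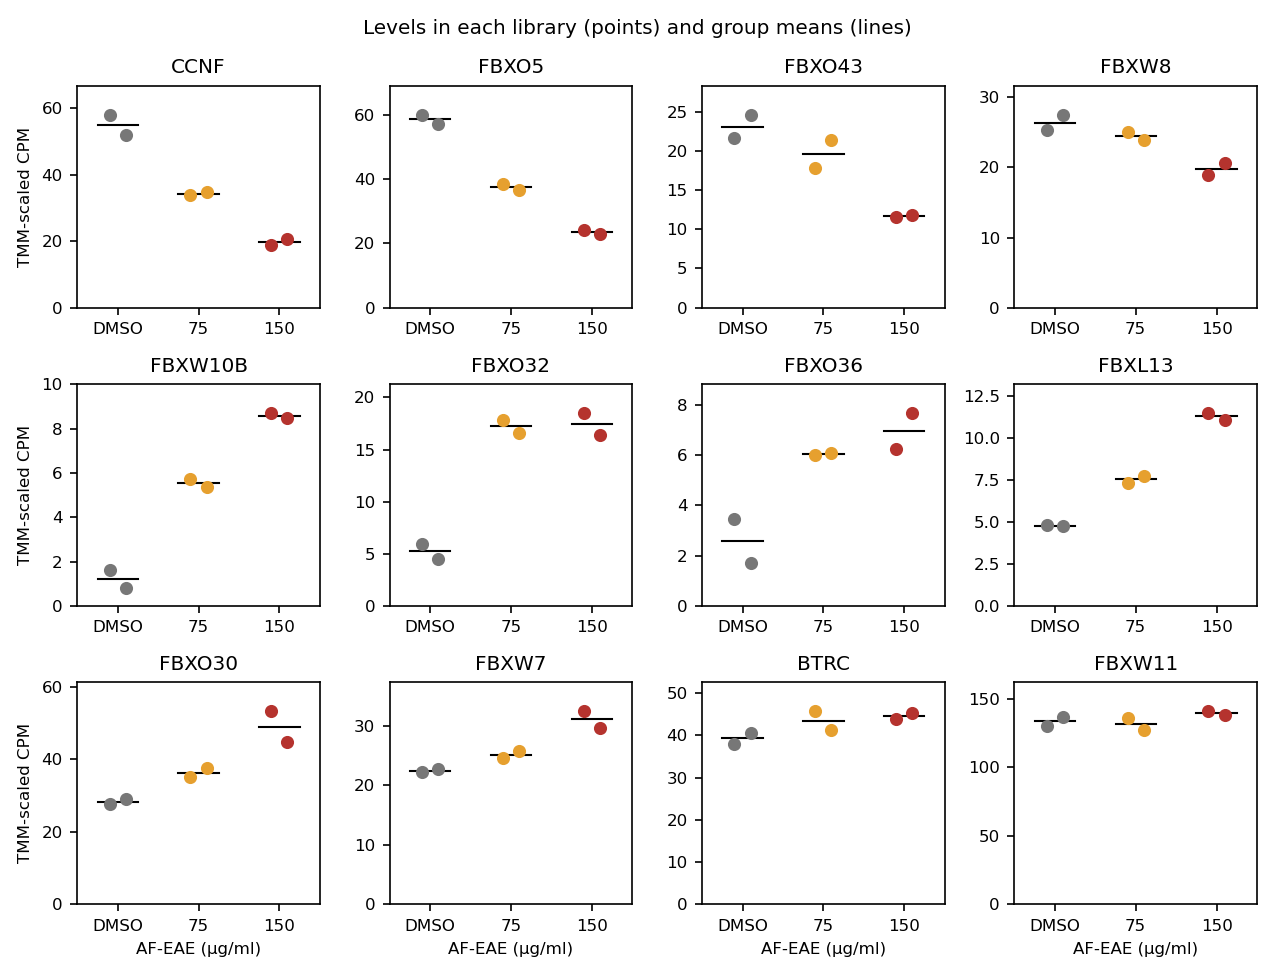
TMM-scaled CPM of 12 F-box genes in each library (points, DMSO grey, 75 µg/ml orange, 150 µg/ml red), with group means as lines and axes from 0. CCNF and FBXO5 step down with dose, FBXW10B and FBXL13 step up, FBXO32 is at about the same level at both doses, and BTRC and FBXW11 move by less.

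The largest rises lay in genes with low counts. FBXW10B (named CDRT1 in GENCODE 29; chr17:15565483-15619512, minus strand) had 1.64 and 0.786 CPM in DMSO libraries, 5.75 and 5.35 CPM at 75 µg/ml and 8.70 and 8.47 CPM at 150 µg/ml. Every treated library lay above both DMSO libraries, and the 150 µg/ml libraries above the 75 µg/ml ones. The rise was 2.18 on the log2 scale at 75 µg/ml (SE 0.282, edgeR adjusted p = 9.5e-06) and 2.81 at 150 µg/ml (SE 0.271, edgeR adjusted p = 1.3e-07), or 4.53-fold and 7.01-fold. The step between doses, 0.63 (edgeR adjusted p = 0.045), was lost without any 1 of the 4 treated libraries (edgeR adjusted p from 0.1 to 0.2). Its near copy FBXW10 on the same chromosome (chr17:18744024-18779349, plus strand) had 0.693 and 0.262 CPM in DMSO libraries, 1.04 and 1.44 CPM at 75 µg/ml and 1.27 and 2.03 CPM at 150 µg/ml. These are 4 to 35 counts in a library, and reads of the 2 copies may not have been separated. The treated libraries of FBXW10 lay above the DMSO libraries, but since it passed the filter through its treated libraries alone, its values are a description and its test is not reported.

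Next to each copy lies a member of another duplicated pair. TRIM16, 8448 bp from FBXW10B on its strand, averaged 17.4 ± 1.26 CPM with DMSO, 35.0 ± 1.63 CPM at 75 µg/ml and 49.6 ± 0.495 CPM at 150 µg/ml (± SD of 2 libraries), and it rose by 1.01 and 1.51 on the log2 scale (edgeR adjusted p = 2.6e-07 and 3.9e-10). TRIM16L, 7906 bp from FBXW10 on its strand, averaged 28.5 ± 0.987 CPM with DMSO, 87.3 ± 3.9 CPM at 75 µg/ml and 117 ± 2.56 CPM at 150 µg/ml (± SD of 2 libraries), and it rose by 1.61 and 2.04 (edgeR adjusted p = 2.8e-11 and 2.4e-13). TVP23C, 1888 bp from FBXW10B, also rose, by 0.75 and 1.04 (edgeR adjusted p = 0.0027 and 7.8e-05). Of the exonic bases of FBXW10B, 36.7% overlap another annotated gene. Whether reads of these neighbours enter the F-box counts was not tested. The neighbours named here and elsewhere were chosen after their values were seen.

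FBXO32, or atrogin-1, the muscle atrophy receptor first described in wasting skeletal muscle (chr8:123497889-123541206, minus strand), had 5.93 and 4.52 CPM in DMSO libraries, 17.8 and 16.6 CPM at 75 µg/ml and 18.5 and 16.4 CPM at 150 µg/ml. The DMSO libraries lay below all treated ones, and the libraries of the 2 doses overlapped. FBXO32 rose 3.29-fold at 75 µg/ml (log2 1.72, SE 0.154, edgeR adjusted p = 1.4e-07) and 3.33-fold at 150 µg/ml (log2 1.73, SE 0.154, edgeR adjusted p = 4.5e-08). The difference between doses was 0.02 (95% interval -0.26 to 0.29, edgeR adjusted p = 0.95).

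In the subfamily that holds receptors of N-linked glycoproteins, 3 of 5 genes rose at each dose (60.0%, beside 19.2% of all genes tested at 75 µg/ml and 25.8% at 150 µg/ml). This subfamily of FBXO2, FBXO6, FBXO17, FBXO27 and FBXO44 shares a sugar-binding type of domain, and FBXO2, FBXO6 and FBXO27 are known to bind high-mannose or other N-glycans on misplaced or misfolded glycoproteins. At 150 µg/ml 1 of the 5, FBXO17, fell. The same counts held when libraries were scaled by total counts, which called 4501 genes higher at 75 µg/ml and 6031 at 150 µg/ml, of all 15589 tested. With TMM scaling, the median log2 fold change of the 5 was 0.57 at 75 µg/ml and 0.44 at 150 µg/ml. Over all genes tested it was 0.01 and 0.03.

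FBXO6 had 2.14 and 1.24 CPM in DMSO libraries, 3.85 and 5.23 CPM at 75 µg/ml and 6.10 and 3.89 CPM at 150 µg/ml. Both doses lay above DMSO and overlapped each other. Its rise was 1.41 at 75 µg/ml (SE 0.319, edgeR adjusted p = 0.0019) and 1.55 at 150 µg/ml (SE 0.316, edgeR adjusted p = 0.00052). FBXO44, which ends 797 bp before FBXO6 on chromosome 1, had 6.30 and 7.46 CPM in DMSO libraries, 12.1 and 12.1 CPM at 75 µg/ml and 11.0 and 11.3 CPM at 150 µg/ml. Both doses were again clear of DMSO, and FBXO44 rose by 0.81 (SE 0.15, edgeR adjusted p = 0.00034) and 0.70 (SE 0.151, edgeR adjusted p = 0.00085). FBXO2, which overlaps FBXO44 on the other strand, had 2.52 and 3.01 CPM in DMSO libraries, 3.97 and 3.42 CPM at 75 µg/ml and 2.24 and 2.61 CPM at 150 µg/ml. Its log2 fold changes of 0.42 (95% interval -0.15 to 0.99, edgeR adjusted p = 0.24) and -0.19 (-0.78 to 0.41, edgeR adjusted p = 0.61) were not past the test, so the 3 adjacent genes did not share a call.

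FBXO27 and FBXO17 are neighbours on chromosome 19, 14804 bp apart on the same strand, and had opposite calls at 150 µg/ml. FBXO27 had 30.7 and 31.2 CPM in DMSO libraries, 46.3 and 45.5 CPM at 75 µg/ml and 41.2 and 42.4 CPM at 150 µg/ml. All treated libraries were above DMSO, with a rise of 0.57 (SE 0.0803, edgeR adjusted p = 2.4e-05) and 0.44 (SE 0.0808, edgeR adjusted p = 0.00022). FBXO17 had 18.0 and 19.2 CPM in DMSO libraries, 17.5 and 16.5 CPM at 75 µg/ml and 12.2 and 13.9 CPM at 150 µg/ml. It fell by 0.51 at 150 µg/ml (SE 0.121, edgeR adjusted p = 0.0019), with a log2 fold change of -0.13 at 75 µg/ml (edgeR adjusted p = 0.43). Its difference of -0.38 between doses (edgeR adjusted p = 0.033) was lost without 75 µg/ml replicate 1 or 2 or 150 µg/ml replicate 1 (edgeR adjusted p = 0.19, 0.067 and 0.25), and when scaled by total counts (edgeR adjusted p = 0.068).

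Among receptors with leucine-rich repeats, 4 rose and 10 were not called at 75 µg/ml, and 5 rose and 2 fell at 150 µg/ml, of 14 tested. The called share was 28.6% and 50%, beside 38.6% and 51.5% of all genes tested. FBXL13, reported to act on the centrosomal protein CEP192, had 4.79 and 4.78 CPM in DMSO libraries, 7.33 and 7.75 CPM at 75 µg/ml and 11.5 and 11.1 CPM at 150 µg/ml. The 3 groups were well apart. FBXL13 rose by 0.66 (SE 0.17, edgeR adjusted p = 0.0053) and 1.24 (SE 0.163, edgeR adjusted p = 5.8e-06), and by 0.58 between doses (edgeR adjusted p = 0.011), the last lost without replicate 1 of either dose (edgeR adjusted p = 0.079 for 75 µg/ml and 0.08 for 150 µg/ml). FBXL15, which targets the ubiquitin ligase SMURF1, had 6.30 and 5.50 CPM in DMSO libraries, 8.74 and 9.07 CPM at 75 µg/ml and 10.3 and 9.40 CPM at 150 µg/ml. Treated libraries were above DMSO throughout, and FBXL15 rose by 0.59 (edgeR adjusted p = 0.0086) and 0.74 (edgeR adjusted p = 0.001). Another gene on the other strand overlaps 27.7% of its exonic bases. The 75 µg/ml call was lost without DMSO replicate 2 (edgeR adjusted p = 0.066).

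FBXL5, the iron sensor that targets IRP2, had 106 and 107 CPM in DMSO libraries, 130 and 122 CPM at 75 µg/ml and 124 and 122 CPM at 150 µg/ml. It rose by 0.25 (edgeR adjusted p = 0.0019) and 0.21 (edgeR adjusted p = 0.0041), and the call at 75 µg/ml was lost without 75 µg/ml replicate 1 (edgeR adjusted p = 0.054). FBXL19, which has a CXXC domain that binds unmethylated CpG, had 28.2 and 25.1 CPM in DMSO libraries, 39.7 and 35.9 CPM at 75 µg/ml and 38.7 and 37.2 CPM at 150 µg/ml. Its rise was of the same size at both doses, 0.50 and 0.51 (edgeR adjusted p = 0.00039 and 0.0002). FBXL20 rose at 150 µg/ml by 0.33 (edgeR adjusted p = 0.031), a call lost without DMSO replicate 1, 150 µg/ml replicate 1 or 150 µg/ml replicate 2 (edgeR adjusted p = 0.18, 0.093 and 0.11).

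The 2 leucine-rich repeat genes that fell at 150 µg/ml were FBXL17 and FBXL14. FBXL17, which removes wrongly paired BTB-domain dimers, had 22.3 and 25.1 CPM in DMSO libraries, 21.3 and 23.4 CPM at 75 µg/ml and 15.2 and 17.7 CPM at 150 µg/ml. Only the 150 µg/ml libraries were lower, by 0.53 against DMSO (SE 0.118, edgeR adjusted p = 0.0011) and 0.44 against 75 µg/ml (edgeR adjusted p = 0.012). The second call was lost without 75 µg/ml replicate 2 or 150 µg/ml replicate 1 (edgeR adjusted p = 0.091 and 0.15). FBXL14, a receptor for SNAI1, had 24.96 and 22.7 CPM in DMSO libraries, 20.7 and 20.5 CPM at 75 µg/ml and 17.8 and 19.5 CPM at 150 µg/ml. It fell by 0.36 at 150 µg/ml (edgeR adjusted p = 0.011), which was lost without replicate 1 of DMSO or of 150 µg/ml (edgeR adjusted p = 0.092 and 0.082) and when scaled by total counts (edgeR adjusted p = 0.2).

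Several FBXO genes rose at both doses. FBXO36 had 3.47 and 1.70 CPM in DMSO libraries, 5.99 and 6.07 CPM at 75 µg/ml and 6.23 and 7.66 CPM at 150 µg/ml, a rise of 1.21 (SE 0.27, edgeR adjusted p = 0.0017) and 1.42 (SE 0.266, edgeR adjusted p = 0.00024). The spread between its DMSO libraries was wide, yet both lay below all treated ones. FBXO30, an atrophy-related receptor in mouse muscle, averaged 28.3 ± 0.938 CPM in DMSO libraries, 36.3 ± 1.74 CPM at 75 µg/ml and 49.1 ± 6.01 CPM at 150 µg/ml (± SD of 2 libraries), and the 3 groups did not overlap. It rose by 0.36 (edgeR adjusted p = 0.0074) and 0.79 (edgeR adjusted p = 1.9e-06), and by 0.43 between doses (edgeR adjusted p = 0.0027). The first of these calls was lost without 75 µg/ml replicate 2 (edgeR adjusted p = 0.063) and the last without 150 µg/ml replicate 1 (edgeR adjusted p = 0.073).

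FBXO10, which has been described as a receptor for BCL2, had 4.03 and 5.30 CPM in DMSO libraries, 9.66 and 6.13 CPM at 75 µg/ml and 9.19 and 8.07 CPM at 150 µg/ml. All treated libraries were above DMSO, and the 75 µg/ml libraries spread most. Of the exonic bases of FBXO10, 48.0% overlap another annotated gene on the same strand. FBXO10 rose by 0.76 (edgeR adjusted p = 0.012) and 0.89 (edgeR adjusted p = 0.0027), the first lost without DMSO replicate 1 or 75 µg/ml replicate 1 (edgeR adjusted p = 0.099 and 0.26). FBXO16 had 0.819 and 1.18 CPM in DMSO libraries, 2.38 and 2.52 CPM at 75 µg/ml and 2.12 and 2.90 CPM at 150 µg/ml. Its rise of 1.29 (edgeR adjusted p = 0.0086) and 1.33 (edgeR adjusted p = 0.0049) was lost without DMSO replicate 1 at both doses (edgeR adjusted p = 0.078 at 75 µg/ml and 0.051 at 150 µg/ml) and without 150 µg/ml replicate 2 at 150 µg/ml (edgeR adjusted p = 0.064). Of its exonic bases 51.4% overlap other genes, among them ZNF395 on the same strand, which fell by 0.52 and 0.83 (edgeR adjusted p = 4.4e-05 and 1.3e-07). FBXO48 and FBXO3 complete the genes higher at both doses, with rises of 0.52 and 0.61 for FBXO48 and 0.25 and 0.24 for FBXO3. FBXO48 lost its call at 75 µg/ml without 75 µg/ml replicate 1 (edgeR adjusted p = 0.074), and FBXO3 lost its call at 75 µg/ml without DMSO replicate 2 or 75 µg/ml replicate 1 (edgeR adjusted p = 0.1 and 0.14) and at 150 µg/ml without DMSO replicate 2 or 150 µg/ml replicate 1 (edgeR adjusted p = 0.1 and 0.052).

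Genes higher at 150 µg/ml without a call at 75 µg/ml included, besides FBXW7, FBXO31, FBXL20 and FBXW10, the BCL6 receptor FBXO11 (0.28), FBXO42 (0.42), FBXO8 (0.39), FBXO25 (0.37), FBXO33 (0.32) and FBXW2 (0.17), on the log2 scale. FBXO42 and FBXO8 were called with any 1 library left out, whereas FBXO11 lost the call without DMSO replicate 2 (edgeR adjusted p = 0.05). FBXO25 lost it without DMSO replicate 2 or 150 µg/ml replicate 2 (edgeR adjusted p = 0.16 and 0.14), FBXO33 without DMSO replicate 1 or 150 µg/ml replicate 1 (edgeR adjusted p = 0.32 and 0.14), and FBXW2 without 150 µg/ml replicate 2 (edgeR adjusted p = 0.11). FBXO11 had 46.4 and 44.2 CPM in DMSO libraries, 43.6 and 49.4 CPM at 75 µg/ml and 55.4 and 54.6 CPM at 150 µg/ml. The DMSO and 75 µg/ml libraries of FBXO11 overlapped, and 26.9% of its exonic bases overlap other genes. FBXW4 had 13.7 and 14.1 CPM in DMSO libraries, 19.6 and 18.9 CPM at 75 µg/ml and 16.1 and 17.5 CPM at 150 µg/ml. It rose by 0.47 at 75 µg/ml (edgeR adjusted p = 0.0037) and had a log2 fold change of 0.28 at 150 µg/ml (95% interval 0.03 to 0.53, edgeR adjusted p = 0.056).

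The remaining falls were smaller. FBXW8, the F-box partner of the scaffold CUL7, had 25.3 and 27.5 CPM in DMSO libraries, 25.1 and 23.8 CPM at 75 µg/ml and 18.9 and 20.7 CPM at 150 µg/ml. It fell by 0.42 at 150 µg/ml (SE 0.104, edgeR adjusted p = 0.0028), and the adjusted p was 0.074 when scaled by total counts. Its change between doses, -0.31 (edgeR adjusted p = 0.043), was lost without any 1 of the 4 treated libraries (edgeR adjusted p from 0.064 to 0.27). CUL7 itself had 44.8 and 42.6 CPM in DMSO libraries, 60.9 and 59.5 CPM at 75 µg/ml and 63.8 and 69.9 CPM at 150 µg/ml and rose by 0.46 and 0.61 (edgeR adjusted p = 0.0001 and 2.1e-06), so that scaffold and receptor had opposite calls at 150 µg/ml.

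FBXO45, which works with the ligase MYCBP2 in place of CUL1, had 103 and 101 CPM in DMSO libraries, 80.9 and 78.7 CPM at 75 µg/ml and 91.3 and 91.7 CPM at 150 µg/ml. The 75 µg/ml libraries were the lowest and the groups did not overlap. It fell by 0.35 at 75 µg/ml (SE 0.0582, edgeR adjusted p = 0.00012) and by 0.16 at 150 µg/ml (edgeR adjusted p = 0.03), the second lost without any 1 of the DMSO and 150 µg/ml libraries (edgeR adjusted p from 0.062 to 0.099) and turned to 0.03 when scaled by total counts. Between doses it was higher at 150 µg/ml by 0.20 (edgeR adjusted p = 0.022), which was lost without any 1 of the 4 treated libraries (edgeR adjusted p from 0.075 to 0.16). WDR53, which overlaps FBXO45 on the other strand, rose by 0.47 at 150 µg/ml (edgeR adjusted p = 0.00034) and had a log2 fold change of 0.09 at 75 µg/ml (edgeR adjusted p = 0.51).

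FBXO22, a receptor for KDM4A and BACH1, had 64.9 and 58.7 CPM in DMSO libraries, 52.5 and 49.2 CPM at 75 µg/ml and 54.7 and 53.1 CPM at 150 µg/ml. It fell by 0.28 (edgeR adjusted p = 0.0068) and 0.20 (edgeR adjusted p = 0.036). The first call was lost without DMSO replicate 1 or 75 µg/ml replicate 2 (edgeR adjusted p = 0.09 and 0.077), and the second without DMSO replicate 1 or either 150 µg/ml library (edgeR adjusted p = 0.29, 0.075 and 0.14). FBXO21 had 53.0 and 55.1 CPM in DMSO libraries, 48.1 and 43.1 CPM at 75 µg/ml and 43.8 and 44.1 CPM at 150 µg/ml and fell by 0.25 (edgeR adjusted p = 0.019) and 0.30 (edgeR adjusted p = 0.0041). Its first call was lost without DMSO replicate 2 or 75 µg/ml replicate 2 (edgeR adjusted p = 0.091 and 0.23). With total-count scaling, neither FBXO22 nor FBXO21 was called at either dose.

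FBXO9 had 52.0 and 59.2 CPM in DMSO libraries, 48.5 and 48.1 CPM at 75 µg/ml and 46.9 and 47.0 CPM at 150 µg/ml. It fell by 0.24 at 150 µg/ml (edgeR adjusted p = 0.015), which was lost without DMSO replicate 2 or either 150 µg/ml library (edgeR adjusted p = 0.2, 0.064 and 0.058) and when scaled by total counts (edgeR adjusted p = 0.58). CILK1, which overlaps FBXO9 on the other strand, averaged 148 ± 10.3 CPM with DMSO, 70.4 ± 1.75 CPM at 75 µg/ml and 48.1 ± 3.27 CPM at 150 µg/ml (± SD of 2 libraries), and it fell by 1.07 and 1.62 (edgeR adjusted p = 2e-09 and 4.4e-12). On the other side of the sign, MAP1LC3B, which overlaps FBXO31 on the opposite strand, averaged 200 ± 8.06 CPM with DMSO, 341 ± 12.1 CPM at 75 µg/ml and 601 ± 45.6 CPM at 150 µg/ml (± SD of 2 libraries), and it rose by 0.77 and 1.59 (edgeR adjusted p = 1.2e-08 and 3.7e-13). The sources used here do not say if the libraries keep the strand, and the part of such neighbours in the F-box values was not tested.

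**Figure D5:**
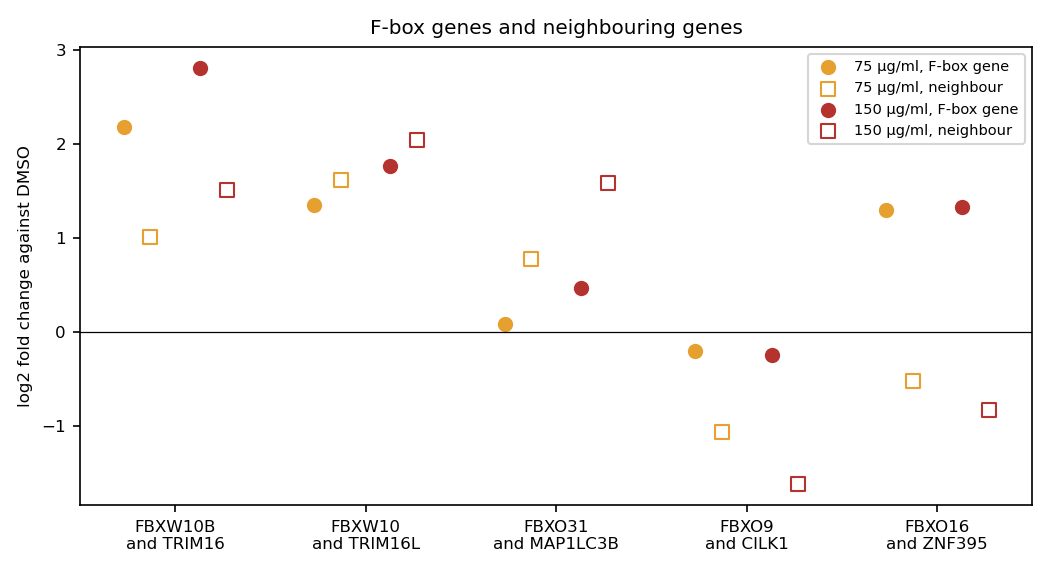
Log2 fold change against DMSO of 5 F-box genes (circles) and 1 neighbouring or overlapping gene of each (squares), at 75 µg/ml (orange) and 150 µg/ml (red). TRIM16, TRIM16L, MAP1LC3B and CILK1 have the sign of the F-box gene at both doses, and ZNF395 fell where FBXO16 rose. FBXO31 and FBXO9 had no call at 75 µg/ml. The 5 pairs were chosen after their values were seen, and some pairs not drawn, such as FBXO45 and WDR53, had opposite signs.

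FBXO7, a receptor linked to hereditary parkinsonism, had 102 to 109 CPM over all 6 libraries and log2 fold changes of 0.01 (95% interval -0.11 to 0.13) and 0.02 (-0.10 to 0.14). Over the 18 tested genes with no call against DMSO, log2 fold changes ran from -0.12 to 0.42 at 75 µg/ml and from -0.26 to 0.31 at 150 µg/ml. FBXO28 and FBXL12, both in that group, were higher at 150 than at 75 µg/ml by 0.21 and 0.29 (edgeR adjusted p = 0.019 and 0.023), and each lost that call without 75 µg/ml replicate 1 (edgeR adjusted p = 0.15 and 0.19) or 150 µg/ml replicate 1 (edgeR adjusted p = 0.17 and 0.13), FBXL12 also without 150 µg/ml replicate 2 (edgeR adjusted p = 0.052).

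Among other genes of the SCF machinery, more fell than rose with TMM scaling, but not with scaling by total counts. The list has 30 genes of the SCF core, the neddylation enzymes that activate it and the COP9 signalosome that reverses neddylation, all tested. At 75 µg/ml 1 rose and 8 fell (3.33% and 26.7%, beside 19.2% and 19.4% of all genes tested). At 150 µg/ml 4 rose and 13 fell (13.3% and 43.3%, beside 25.8% and 25.7%). In either direction 30.0% and 56.7% were called, beside 38.6% and 51.5%. Scaled by total counts, 5 rose and 5 fell at 75 µg/ml, beside 4501 higher and 1816 lower of all 15589 genes tested. At 150 µg/ml that scaling gave 9 higher and 7 lower, beside 6031 higher and 2542 lower. With TMM scaling, the median log2 fold change of the list was -0.09 at 75 µg/ml and -0.18 at 150 µg/ml. Over all genes tested it was 0.01 and 0.03. SKP2 had 89.6 and 96.0 CPM in DMSO libraries, 51.2 and 54.0 CPM at 75 µg/ml and 35.7 and 38.4 CPM at 150 µg/ml and fell by 0.82 and 1.32 (edgeR adjusted p = 1e-07 and 1.2e-10). COPS6, a signalosome subunit, fell by 0.47 and 0.75 (edgeR adjusted p = 3.9e-05 and 8.3e-08), and the scaffold CUL1 by 0.35 and 0.51 (edgeR adjusted p = 0.00011 and 9.7e-07). The adaptor SKP1 had 118 to 132 CPM over the 6 libraries and log2 fold changes of -0.02 and -0.03 (edgeR adjusted p = 0.8 and 0.69).

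The APC/C, the ligase that FBXO5 inhibits, was represented by 18 genes, all tested. At 75 µg/ml 1 rose and 4 fell (5.56% and 22.2%, beside 19.2% and 19.4% of all genes tested). At 150 µg/ml 2 rose and 8 fell (11.1% and 44.4%, beside 25.8% and 25.7%). Scaled by total counts, 6 rose and 2 fell at 75 µg/ml, beside 4501 higher and 1816 lower of all 15589 genes tested. At 150 µg/ml that scaling gave 3 higher and 6 lower, beside 6031 higher and 2542 lower. In either direction 27.8% and 55.6% were called with TMM scaling, beside 38.6% and 51.5%. The median log2 fold change was -0.08 at 75 µg/ml and -0.19 at 150 µg/ml, beside 0.01 and 0.03 over all genes tested. Its mitotic activator CDC20 had 260 and 245 CPM in DMSO libraries, 165 and 150 CPM at 75 µg/ml and 80.5 and 87.9 CPM at 150 µg/ml and fell by 0.69 and 1.58 (edgeR adjusted p = 1e-07 and 1.5e-12). The ubiquitin-conjugating enzymes UBE2C and UBE2S had log2 fold changes of 0.02 and -0.20 at 75 µg/ml (edgeR adjusted p = 0.75 and 0.08) and fell by 0.72 and 0.89 at 150 µg/ml (edgeR adjusted p = 5.6e-09 and 1.9e-07). The subunit ANAPC1 fell by 0.38 and 0.56 (edgeR adjusted p = 4.7e-05 and 2.6e-07), and ANAPC2 rose by 0.30 and 0.27 (edgeR adjusted p = 0.0044 and 0.0062).

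Some F-box genes carry other kinds of symbols. Of 7 listed, 4 were tested and 1 was called, at 150 µg/ml (25%, beside 51.5% of all genes tested). Under total-count scaling 1 rose at 75 µg/ml, and 2 rose and 1 fell at 150 µg/ml. Of all 15589 genes tested, that scaling called 4501 higher at 75 µg/ml, and 6031 higher and 2542 lower at 150 µg/ml. The gene that fell, LMO7, had 67.1 and 70.2 CPM in DMSO libraries, 62.2 and 58.9 CPM at 75 µg/ml and 42.7 and 46.8 CPM at 150 µg/ml and fell by 0.62 at 150 µg/ml (edgeR adjusted p = 2e-06). The histone demethylases KDM2A and KDM2B and the helicase FBH1 had log2 fold changes of -0.01, -0.14 and 0.09 at 150 µg/ml (edgeR adjusted p = 0.91, 0.19 and 0.27).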

How the data were processed

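Each library has 1 deposited file of raw counts by gene, made by the authors. Per the submitters' processing notes, HISAT2 2.2.1 and HTSeq 2.0.2 were used with build hg38. For the counting options, strand setting and annotation release the sources used here say nothing. Summary rows of the counter were set aside before library sizes were taken: no-feature reads were 6.32% to 7.98% and ambiguous reads 10.95% to 11.48%.

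Coordinates and exon lengths are those of GENCODE 29, which matched 58405 rows, and 60481 rows had a symbol. Of the 56 tested F-box genes, 31 overlap another gene's exons, 9 of them over more than 25% of their exonic bases. All 6 libraries were fitted with edgeR 4.0.16 (R 4.3.3, TMM, default filter, group means, no block, 3 residual and 13.8 prior degrees of freedom). SE values were derived from the F statistic. Replicates of a group correlated at 0.990 to 0.991 across genes. The fits were also run on simulated data with far fewer changed genes than were called here, and no conclusion is drawn from that run. Alternatives were other size factors, total counts, other filters, DESeq2 1.42.0, a replicate block, each library left out, an adjusted p of 0.01 and a log2 fold change of 0.5 or more. Named are BTRC, CCNF, FBXW7, FBXW11 and FBXO5, then the 10 largest rises and falls per dose against DMSO and the 5 between doses among called genes whose groups do not overlap, and the 3 smallest p of each pathway list. Other F-box genes are named to account for every call. The counts include 1 tested F-box gene without a call that is not reported here. The genes, lists and tests were chosen with earlier results of these data known. Intervals of 95% and the floor cover counting and library spread only.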

Additional observations from a re-analysis of the deposited data

How the results depend on the processing

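Of 1000 repeats for 28 named genes in 3 comparisons, 913 kept the direction and the side of the threshold, 74 lost the call, 12 gained one and 1 reversed, FBXO45 at 150 µg/ml against DMSO, at a log2 fold change of 0.031 when scaled by total counts. Scaling by total counts gave 25 higher and 3 lower at 75 µg/ml and 5 lower at 150 µg/ml. Of all 15589 genes tested, it gave 4501 higher and 1816 lower at 75 µg/ml and 2542 lower at 150 µg/ml. With a log2 fold change of 0.5 or more, 14 genes were called at 75 µg/ml, 2 of them lower, 18 at 150 µg/ml (13 higher, 5 lower) and 5 between doses (2 higher, 3 lower). An adjusted p under 0.01 left 5 between doses (2 higher, 3 lower). For these cuts the same counts over all genes are not given, so they are not read as a result about the family. DESeq2 called 8 between doses, of which 4 were higher, beside 980 higher and 1584 lower of all genes. Leaving out 1 library gave 18 to 22 calls at 75 µg/ml (13 to 16 higher, 3 to 6 lower), 30 to 37 at 150 µg/ml (21 to 25 higher, 8 to 12 lower) and 3 to 16 between doses (0 to 10 higher, 3 to 6 lower). Over all genes tested, each of those fits called fewer against DMSO at both doses than the fit of all 6 libraries. Between doses, the fits without a treated library called fewer of all genes, and those without a DMSO library called more. The left-out counts are therefore not read as a result about the family, and the cause of their differences was not tested. Replicate numbers did not pair the libraries, since their deviations correlated at 0.059, 0.041 and 0.0037. With the replicate number as a block, 24, 39 and 16 F-box genes were called, beside 22, 37 and 15 without it. Over all genes, 6292, 8194 and 3776 were called with the block, beside 6015, 8022 and 3433 without it. At 75 µg/ml FBXO9 (edgeR adjusted p = 0.042) was among the F-box genes that gained a call. With 2 libraries a group, and 4 to 35 counts a library for FBXW10, small changes of low genes were not detectable.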
